A study of Mus musculus with 12 samples.

Results

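Small leucine-rich proteoglycans are secreted matrix proteins built from a short core of leucine-rich repeats, to which many of them carry glycosaminoglycan chains. The RNA of 8 genes of this family was examined in the ventricular wall of mice with and without Sdhaf4 in striated muscle. The rows were chosen by gene name from the deposited table of 43686 rows, and each of Fmod, Dcn, Bgn, Lum, Prelp, Ogn, Aspn and Podn was present as 1 row. The list was drawn up with differences between the genotypes in these data known, so every KO against WT value of the 8 genes is given as a description with no test.

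The WT group held 6 hearts and the KO group 6 hearts, all from mice labelled as C57BL/6 (C57BL/6J in the study's methods) and 2 months old, although the study's text gives a somewhat younger age. According to the study's methods both groups carried floxed Sdhaf4 alleles (Sdhaf4 fl/fl), and the KO mice, labelled Sdhaf4-/-, also carried Ckmm-Cre, which is expressed from the muscle creatine kinase promoter in cardiac and skeletal muscle. Fibroblasts and other non-muscle cells of the ventricle are not targets of this Cre, and an effect of Cre itself cannot be told apart from that of the deletion. Each library is 1 labelled sample, and the labels do not say more about the separate origin of the samples, so the p-values below measure the spread between these libraries. The total counts ranged from 23747014 to 27159228 in the WT libraries and from 26542930 to 31393393 in the KO libraries. Sdhaf4 itself was at 25.2 ± 5.80 CPM in WT and 2.40 ± 0.170 in KO (CPM, counts scaled to the library size with TMM factors; mean ± SD of 6 hearts per genotype). All 9 of the cardiomyocyte markers found in the table were detected, at a summed 52600 to 57400 CPM in WT and 42730 to 58540 in KO. Of 8 atrial muscle markers, Sln, Myl7 and Bmp10 stayed at or below 9 counts in every library. Of the other 5, 4 were higher in KO, Nppa among them, and 1 was lower (quasi-likelihood test in edgeR, adjusted p below 0.05). Over all tested rows 25.6% were higher and 25.5% lower.

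In connective tissue, small leucine-rich proteoglycans bind fibrillar collagens and set the diameter and spacing of the fibrils, and several of them also hold growth factors such as TGF-beta in the matrix. Decorin (Dcn), biglycan (Bgn) and asporin (Aspn) form class I of the family. Fibromodulin (Fmod), lumican (Lum) and prolargin (Prelp) form class II, osteoglycin or mimecan (Ogn) belongs to class III, and podocan (Podn) to a more distant class. In the heart they are made mainly by fibroblasts and related stromal cells. The table's own InterPro annotation gives the decorin/asporin/biglycan signature to 3 rows in all, which are the 3 class I genes. It gives the leucine-rich repeat N-terminal domain to 7 of the 8 genes, the exception being Ogn. Of the 28 other tested rows with that N-terminal domain, 12 were higher and 5 lower in KO (quasi-likelihood test in edgeR, adjusted p below 0.05), with a median log2 fold change of 0.25. Over all 17155 tested rows 25.6% were higher and 25.5% lower, with a median of 0.00.

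Promoter sequences of 6 of the 8 genes were matched by symbol in RefSeq (GRCm38.p6), and the table used here held no entry for Dcn and Lum. The 250 bases before the annotated start are shown for the 3 genes with the largest fold change between the genotypes, namely Fmod (chr1:134037004-134037253, plus strand), Bgn (chrX:73483351-73483600, plus strand) and Aspn (chr13:49544193-49544442, plus strand). Capitals mark every match, on either strand, to 1 of 6 motifs that were searched: the TATA box (TATAAA), the CCAAT box (CCAAT), the GC box bound by Sp1 (GGGCGG), the AP-1 site (TGANTCA), a Smad-binding element (CAGACA) and the core of the hypoxia-response element (ACGTG). All are written 5′ to 3′ on the gene's strand.
Fmod: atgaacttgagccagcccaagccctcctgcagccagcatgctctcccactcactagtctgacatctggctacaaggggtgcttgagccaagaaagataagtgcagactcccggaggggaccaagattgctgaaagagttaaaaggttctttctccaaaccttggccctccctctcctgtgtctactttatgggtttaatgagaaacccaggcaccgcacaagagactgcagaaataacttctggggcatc
Bgn: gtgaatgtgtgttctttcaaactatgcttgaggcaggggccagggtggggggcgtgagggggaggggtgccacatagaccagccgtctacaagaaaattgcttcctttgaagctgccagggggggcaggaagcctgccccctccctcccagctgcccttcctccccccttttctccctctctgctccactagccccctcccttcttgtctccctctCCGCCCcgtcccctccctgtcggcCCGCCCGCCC
Aspn: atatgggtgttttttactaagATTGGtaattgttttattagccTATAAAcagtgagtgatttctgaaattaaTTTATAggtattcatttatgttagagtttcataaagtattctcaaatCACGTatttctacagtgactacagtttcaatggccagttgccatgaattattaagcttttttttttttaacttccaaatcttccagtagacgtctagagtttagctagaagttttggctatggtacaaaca

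The 3 windows had little in common. Their GC content was 51.2% for Fmod, 64.4% for Bgn and 30.0% for Aspn, where the median of all 32851 RefSeq promoter windows of this length was 52.4%. The Fmod window held none of the 6 motifs. The Bgn window held 3 matches to GGGCGG, all on the reverse strand, and those that begin 10 and 6 bases before the start overlap each other. A match to GGGCGG was found in 32.7% of all windows. The Aspn window held 2 matches to TATAAA (12.4% of all windows), which lie 207 and 178 bases before the start. It also held 1 match to CCAAT (33.8% of all windows) and 1 to ACGTG (16.6%). TGANTCA (6.75% of all windows) and CAGACA (17.1%) were in none of the 7 windows of the 6 genes, 2 of which belong to Podn. Such a match is a string of letters and not a measured binding site.

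Decorin and biglycan carried most of the family's RNA in both genotypes. Genes were compared with each other on the deposited FPKM level, which is scaled by a gene length. For Bgn, Fmod, Prelp and Podn it was higher than their CPM and listed length give. The length used for these genes is thus uncertain, and the order and shares below hold for the FPKM as deposited. Dcn was at 454 ± 33.7 in WT and 705 ± 98.2 in KO (SD, 6 hearts per genotype). Bgn was at 116 ± 12.5 and 473 ± 66.3. In all 6 WT hearts the order from high to low was Dcn, Bgn, Ogn, Lum, Prelp, Aspn, Podn and Fmod. In KO hearts Dcn and Bgn again came first and second in every library and Podn came last in every library. Between them, the order of Ogn, Lum, Prelp, Aspn and Fmod varied from heart to heart, and their KO means ran from 46.7 FPKM for Fmod to 61.4 FPKM for Ogn with SDs of 11.4 to 23.7, so neighbours in this order did not differ beyond their spread.

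The summed FPKM of the 8 genes was 693 ± 39.1 in WT and 1464 ± 227 in KO, 2.11 times higher. It ranged from 631 to 745 in WT and from 1169 to 1701 in KO, so the groups did not overlap. As a share of all counts in a library, the 8 genes took 0.128% ± 0.00725 in WT and 0.262% ± 0.0424 in KO. RNA of the ventricular wall is a mixture of cell types, and a change in the number of a kind of cell cannot be told apart from a change of RNA per cell.

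**Figure D1:**
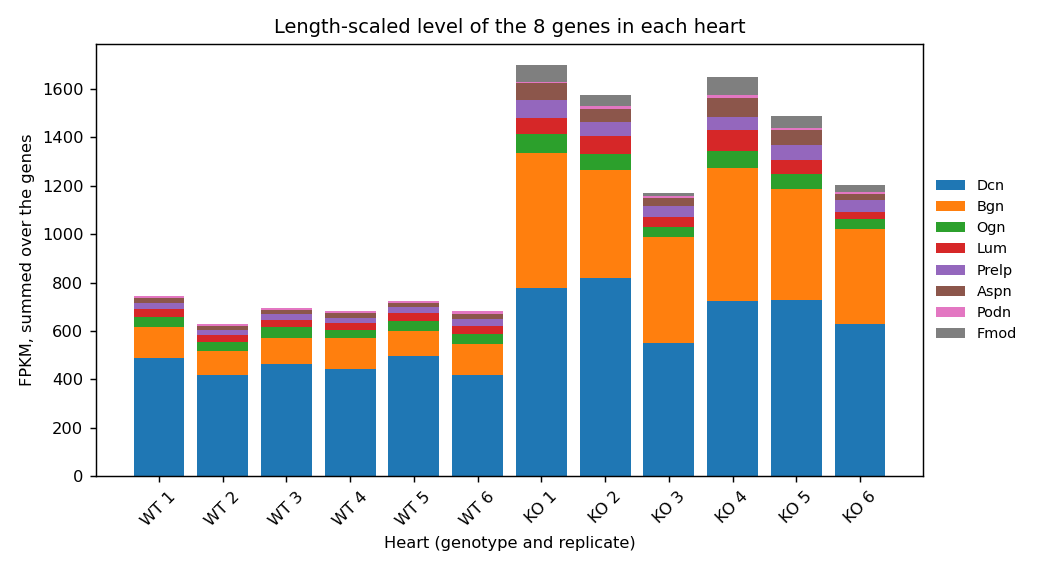
FPKM of the 8 genes stacked in each of the 12 hearts (vertical axis, FPKM summed over the genes; horizontal axis, genotype and replicate). The WT stacks end between 631 and 745 and the KO stacks between 1169 and 1701; Dcn (bottom) and Bgn (above it) make up most of each stack.

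The make-up of this pool differed between the genotypes. Dcn contributed 65.5% ± 2.34 of the summed FPKM in WT and 48.3% ± 3.34 in KO, with no overlap (61.5% to 68.5% against 44.0% to 52.5%). Bgn contributed 16.7% ± 1.70 in WT and 32.5% ± 2.95 in KO (14.5% to 18.9% against 28.3% to 37.3%). Fmod made up 0.0702% ± 0.0525 of the pool in WT and 3.04% ± 1.24 in KO. The shares of Lum, Prelp and Aspn overlapped between the genotypes. The shares of Ogn (5.81% ± 0.630 in WT, 4.13% ± 0.483 in KO) and Podn (1.24% ± 0.211 in WT, 0.629% ± 0.113 in KO) were lower in KO.

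Counted with the rule used for all genes (quasi-likelihood test in edgeR, adjusted p below 0.05), 7 of the 8 genes were higher in KO and Podn was not called, where 25.6% of the 17155 tested rows were called higher and 25.5% lower. All 8 passed the filter on low counts. For 5 of the 8 (Fmod, Bgn, Aspn, Prelp and Dcn) every KO library lay above every WT library, as it did in 14.9% of tested rows, and for none did every KO library lie below every WT library (15.2% of tested rows). At the stricter rule that the study used, an adjusted p below 0.005 with a log2 fold change over 1, 4 of the 8 (Fmod, Bgn, Aspn and Prelp) were higher, against 5.36% of tested rows. Since the genes were chosen with this contrast known, nothing is read from these counts.

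**Figure D2:**
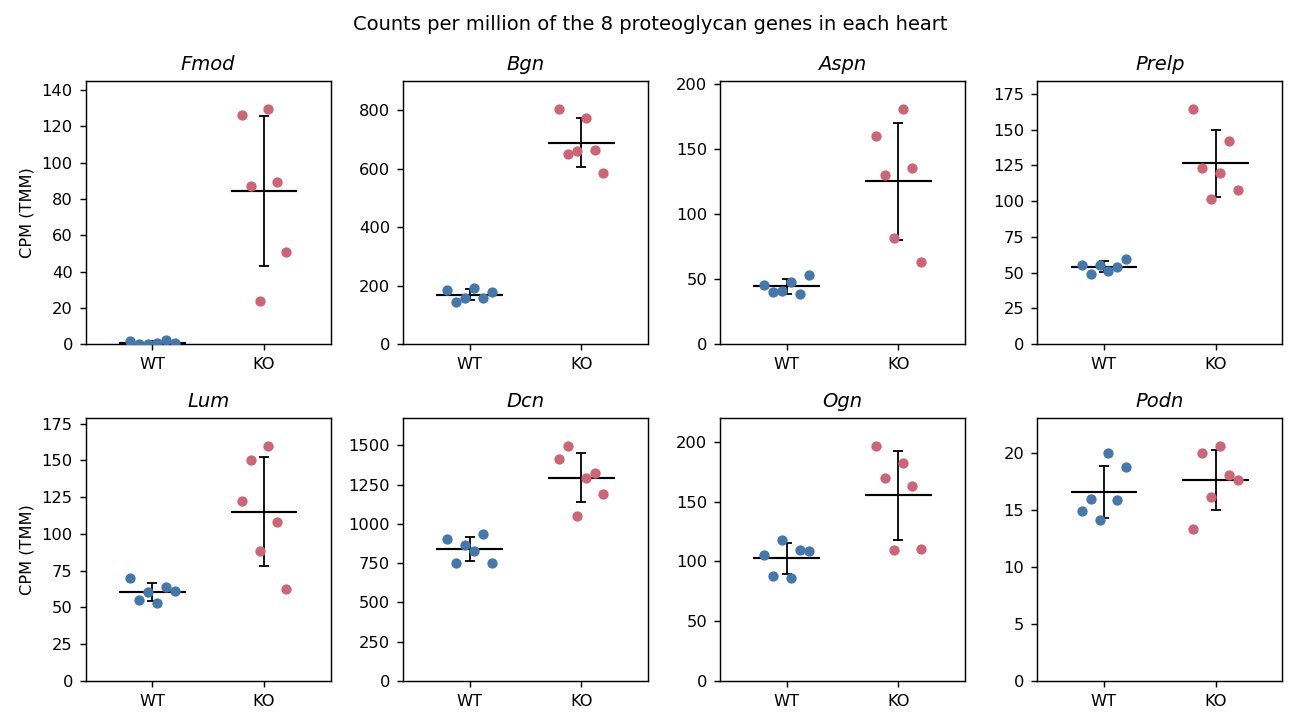
CPM (TMM-normalized) of each gene in each heart, 6 WT (blue) and 6 KO (red), with the mean as a horizontal bar and the SD as an error bar; each panel has its own axis from 0. The KO points lie above all WT points for Fmod, Bgn, Aspn, Prelp and Dcn, overlap with them for Lum and Ogn at the lower KO points, and cover the same range for Podn.

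Among the class I genes, biglycan differed most. Bgn (MGP_C57BL6NJ_G0036307, chromosome X, 71368584 to 71382173) ranged from 146 to 191 CPM in the WT hearts, with a median of 168, and from 584 to 803 in the KO hearts, with a median of 662. The lowest KO heart was thus well above the highest WT heart, and the KO hearts varied little among themselves (coefficient of variation 12.1%, against 10.7% in WT). Its log2 fold change was 2.03 (standard error 0.09), or 4.07-fold. Bgn is known as a ligand of innate immune receptors when it is released from the matrix, besides its role in collagen assembly.

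Decorin, the most abundant member, differed by less. Dcn (MGP_C57BL6NJ_G0018074, chromosome 10, 102641749 to 102682155) ranged from 752 to 933 CPM in WT, with a median of 844, and from 1053 to 1496 in KO, with a median of 1309. The groups were separate, and the log2 fold change was 0.63 (standard error 0.08). On the FPKM scale the difference between the genotype means of Dcn (454 and 705) was still larger in absolute level than the whole KO level of Ogn, Lum, Prelp, Aspn or Fmod.

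Asporin, which binds collagen and TGF-beta, was at 38.9 to 53.5 CPM in WT (median 43.1) and at 63.5 to 181 in KO (median 133). Aspn (MGP_C57BL6NJ_G0020921, chromosome 13, 49980546 to 50008334) had a fitted log2 fold change of 1.5 with a standard error of 0.24. The groups did not overlap, but the KO hearts were far apart, with replicates 6 (63.5 CPM) and 3 (82.0) near the WT hearts and replicate 4 (181) highest. Its coefficient of variation was 12.7% in WT and 35.9% in KO.

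Of the class II genes, and of all 8, fibromodulin stood furthest from its WT level. Fmod (MGP_C57BL6NJ_G0016900, chromosome 1, 142699211 to 142715887) was at 1.61, 0.361, 0.315, 0.517, 2.06 and 0.650 CPM in WT replicates 1 to 6. In KO replicates 1 to 6 it was at 126, 87.2, 24.0, 130, 89.1 and 50.6 CPM. Fmod RNA was thus close to absent from WT ventricles, with 8 to 51 counts per library, and it reached 726 to 3936 counts in the KO libraries. Fibromodulin binds collagen I and takes part in the maturation and cross-linking of its fibrils.

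The fitted log2 fold change of Fmod was 6.54 (standard error 0.58), the fifth largest among the 17155 tested rows. The WT level rests on few counts. The 95% Wilson interval of the lowest WT library was 0.157 to 0.612 CPM and that of the highest 1.53 to 2.65 (library-size scaling, counting error only), whereas the corresponding half-width was at most 10.5% of the value in any library for the 7 other genes. Fmod was also the most variable member among the KO hearts, with a coefficient of variation of 49.1% and a 5.39-fold difference between replicate 4 and replicate 3. With KO replicate 3 or any other library left out, its log2 fold change stayed between 6.36 and 6.96.

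Prolargin, which anchors basement membranes to the underlying collagen, was at 49.0 to 59.6 CPM in WT (median 54.7) and at 101 to 164 in KO (median 121). Prelp (MGP_C57BL6NJ_G0016899, chromosome 1, 142567116 to 142578224) had a fitted log2 fold change of 1.22 with a standard error of 0.10, and the groups did not overlap. An unnamed row on the opposite strand overlaps it, and whether counting used strand is not given in the sources used here, so how the reads divide between both rows is uncertain. Lumican, a regulator of fibril spacing best known from the cornea, was at 52.8 to 70.1 CPM in WT (median 61.1) and at 62.5 to 160 in KO (median 115). Lum (MGP_C57BL6NJ_G0018075, chromosome 10, 102731074 to 102739325) had a fitted log2 fold change of 0.93 with a standard error of 0.20. The groups overlapped through KO replicate 6, whose 62.5 CPM fell within the WT range.

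Osteoglycin was the gene of class III. Ogn (MGP_C57BL6NJ_G0020923, chromosome 13, 50051125 to 50067554) ranged from 85.9 to 118 CPM in WT, with a median of 107, and from 110 to 197 in KO, with a median of 166. KO replicates 3 and 6 lay inside the WT range, and the other 4 KO hearts lay above it. The log2 fold change was 0.60 (standard error 0.15). Aspn and Ogn both lie within the span of Cenpp on the opposite strand, a row with far fewer counts than either.

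Podocan differed from the other members in showing hardly any difference. Podn (MGP_C57BL6NJ_G0028969, chromosome 4, 112626659 to 112644187) ranged from 14.1 to 20.1 CPM in WT, with a median of 15.9, and from 13.4 to 20.7 in KO, with a median of 17.9. The ranges covered each other, and the log2 fold change was 0.09 (standard error 0.11). KO replicate 1, which was highest of the KO hearts for Bgn, Prelp and Ogn, was the lowest KO heart for Podn.

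**Figure D3:**
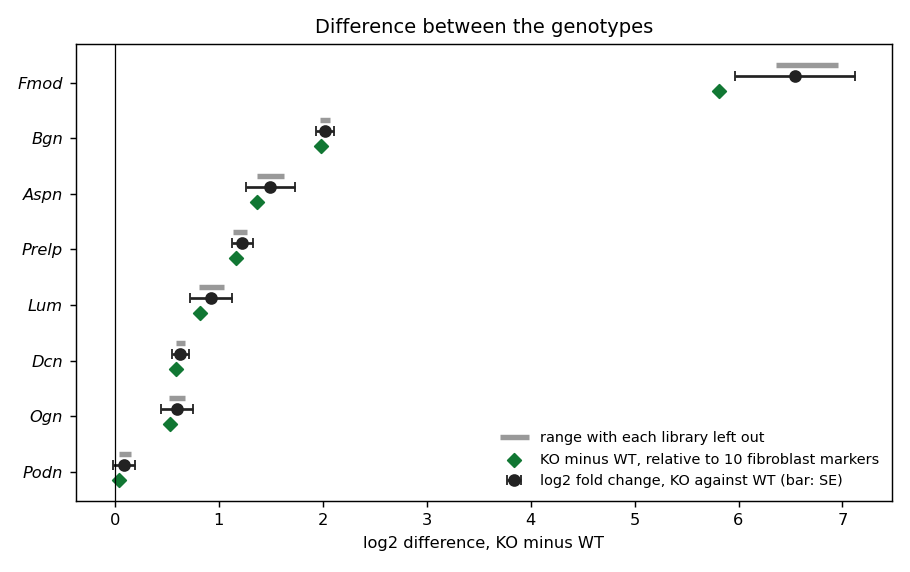
Log2 difference between the genotypes for each gene (horizontal axis, KO minus WT): the fitted log2 fold change with its standard error (black), its range with each of the 12 libraries left out in turn (grey) and the difference relative to 10 fibroblast markers (green). Fmod lies near 6.5, Bgn near 2, the next 5 genes between 0.60 and 1.5 and Podn at 0.09.

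The KO hearts kept a similar order across the members. KO replicates 3 and 6 were the lowest pair for Fmod, Dcn, Lum, Prelp, Ogn and Aspn, although not for Bgn, where replicates 6 and 2 were lowest, nor for Podn. The highest KO heart was replicate 4 for Fmod, Lum, Aspn and Podn, replicate 1 for Bgn, Prelp and Ogn, and replicate 2 for Dcn. The spread within the KO group, as a coefficient of variation, was largest for Fmod (49.1%), Aspn (35.9%), Lum (32.1%) and Ogn (23.8%), and smallest for Bgn (12.1%) and Dcn (12.2%). In the WT group it was between 6.98% for Prelp and 13.9% for Podn, leaving aside the few counts of Fmod.

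The 8 genes were set against fibroblast markers because fibroblasts are their usual source. The mean log2 level of 10 fibroblast markers (log2 of CPM plus 0.5) was 5.95 ± 0.10 in WT and 5.99 ± 0.11 in KO, a difference of 0.04. Within this list, 4 markers rose and 3 fell, beside 25.6% higher and 25.5% lower over all tested rows. Those that rose included Pdgfra (log2 fold change 0.87, adjusted p = 7.48e-08 from edgeR), Tcf21 (0.61, 3.36e-05) and Dpep1 (0.81, 0.000455). Those that fell were Clec3b (log2 fold change -1.34, adjusted p = 1.17e-08 from edgeR), Scara5 (-1.29, 5.87e-07) and Dpt (-0.46, 0.00135). Relative to the mean of the 10 markers, Fmod was higher in KO by 5.81, Bgn by 1.98, Aspn by 1.37, Prelp by 1.16, Lum by 0.82, Dcn by 0.58, Ogn by 0.53 and Podn by 0.04 on the log2 scale. The value for Fmod is smaller than its fitted fold change, in part since 0.5 was added to WT levels that are themselves near 0.5 CPM. Relative to these markers the genotypes overlapped for Lum and Podn and not for the other genes, Ogn among them, which overlapped in CPM. The share of all rows without overlap was not computed on this scale, so nothing is read from this. Against the summed CPM of the same markers the difference was 0.38 for Dcn and 0.32 for Ogn. As the markers moved in both directions, this mean is no count of fibroblasts.

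Markers of activated fibroblasts, a list drawn up with earlier results of these data known, stood much higher in KO. Of 9 tested, 7 rose and 1 fell, beside 25.6% higher and 25.5% lower over all tested rows. Those that rose included Comp (log2 fold change 4.02, adjusted p = 9.72e-11 from edgeR), Ltbp2 (5.67, 2.28e-10) and Postn (3.54, 5.58e-08), and Acta2 fell (log2 fold change -0.44, adjusted p = 0.0272). When 1 library was left out at a time, Acta2 failed the threshold in 4 of 12 fits, those without KO replicate 3 or 6 or WT replicate 2 or 4. Their mean log2 level was 2.53 ± 0.11 in WT and 5.26 ± 0.46 in KO, and it was lowest in KO replicates 6 (4.52) and 3 (4.99). These are the KO hearts in which most of the proteoglycans were also lowest. KO replicates 3 and 6 were likewise lowest in the mean log2 level of valve and tendon markers (2.00 and 2.06) and of mural cell markers (6.06 and 6.10). They were highest for cardiomyocyte markers (12.3 and 12.02), and they were not the lowest pair for endothelial or macrophage markers. Whether the low pair is particular to fibroblasts was not tested.

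Variation between hearts of the same genotype had played no part in choosing the genes, so the relation of each gene to both marker levels was tested within KO and within WT (8 genes, 2 marker lists, 2 genotypes, 32 relations, two-sided exact permutation test over 6 hearts). No relation passed Benjamini-Hochberg adjustment over the 32, with a smallest adjusted p of 0.0889 for Pearson's r and 0.152 for Spearman's rho, while 11 had a permutation p for r below 0.05 before adjustment, 8 of them in KO. In KO hearts Aspn followed the activated fibroblast markers most closely (r = 0.97, rho = 0.94, exact permutation p = 0.00278 and 0.0167, adjusted p = 0.0889 and 0.152), and 0.00278 is the smallest p that 6 hearts allow. Without the 2 hearts farthest from the median marker level, r was 0.91. For Lum the corresponding r was 0.89 and 0.54 without the 2 hearts (exact permutation p = 0.0181, adjusted p = 0.0889). For Bgn and Ogn it was 0.93 and 0.91 (exact permutation p = 0.0139 and 0.00972, adjusted p = 0.0889 for both), and 0.86 and 0.91 without the 2 hearts; rho was 0.77 and 0.89 (exact permutation p = 0.103 and 0.0333). Fmod, Prelp and Dcn had an r of 0.75, 0.66 and 0.57 (exact permutation p = 0.101, 0.147 and 0.240). Their rho was 0.89, 0.54 and 0.54 (exact permutation p = 0.0333, 0.297 and 0.297). Podn showed an r of -0.06 (exact permutation p = 0.897) and a rho of 0.37 (0.497).

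Against the fibroblast markers, r in KO hearts was 0.94 for Ogn, 0.91 for Aspn, 0.89 for Prelp and 0.86 for Fmod (exact permutation p = 0.0194, 0.0222, 0.0236 and 0.0264, adjusted p = 0.0889 for each). The corresponding rho was 0.77, 0.83, 0.89 and 0.77 (exact permutation p = 0.103, 0.0583, 0.0333 and 0.103, adjusted p of at least 0.152). Without the 2 hearts farthest from the median, which were KO replicates 3 and 6, r was 0.26 for Ogn, 0.16 for Aspn and 0.26 for Fmod, so these relations rested on those hearts, and it was 0.84 for Prelp. In WT hearts Prelp had an r of 0.90 with the activated markers (exact permutation p = 0.0111, adjusted p = 0.0889; rho 0.94) and of 0.66 without the 2 hearts. With the summed CPM of the markers in place of their mean log2 level this r turned to -0.60, which did not pass the adjustment either. No batch is given in the labels within which the relations could be recomputed.

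**Figure D4:**
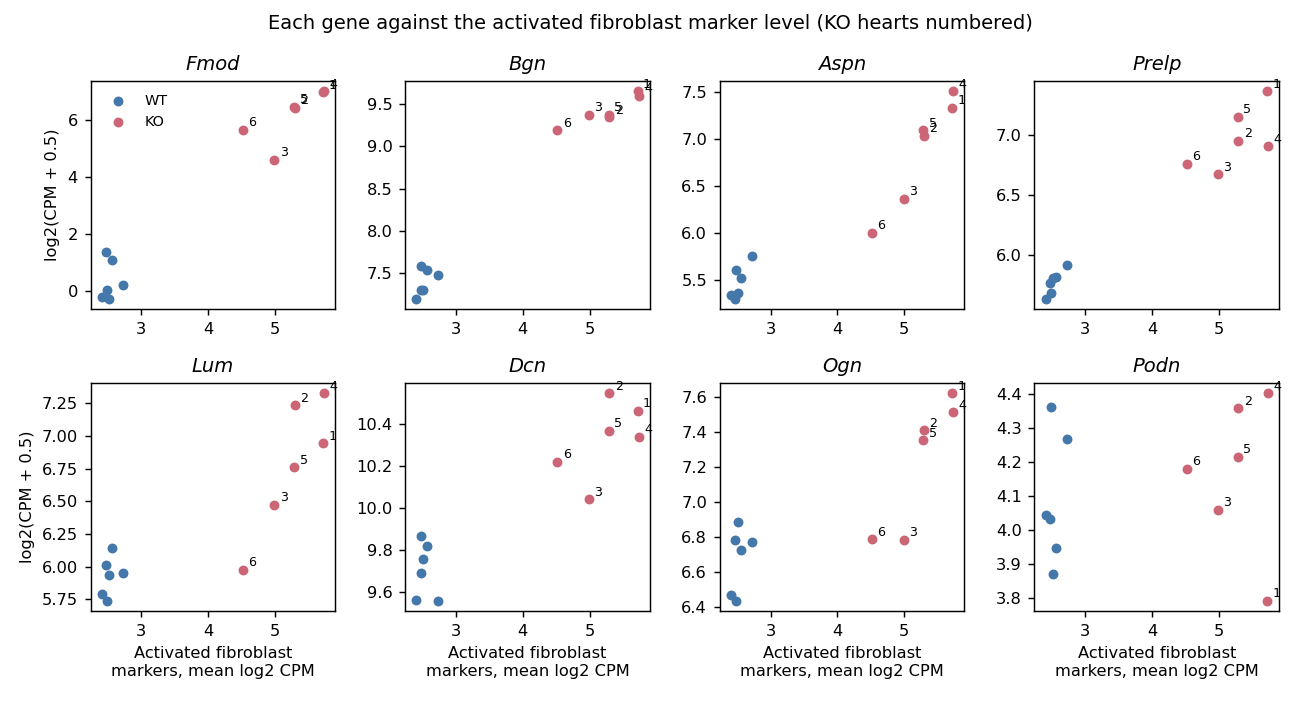
Log2 level of each gene (vertical axis, log2 of CPM plus 0.5) against the mean log2 level of the activated fibroblast markers (horizontal axis) in 6 WT (blue) and 6 KO hearts (red, numbered by replicate). In KO, replicates 6 and 3 sit at the low end of the marker level, at 4.52 and 4.99, and low for most genes, whereas Podn shows no such order.

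Over all 12 libraries, which is a description since both genotypes are pooled, the 5 named genes of at least 5 CPM most like Fmod by Pearson's r of log2 CPM were Edn1, Thbs4, Srpx, Serpinf1 and Fibin, with r between 0.990 and 0.992 among 10249 rows. Edn1 encodes the vasoconstrictor endothelin-1, and Thbs4 a thrombospondin of the matrix. Thbs4 ranged from 1.27 to 3.60 CPM in WT and from 102 to 437 in KO, and Edn1 from 6.64 to 9.14 and from 17.8 to 23.0. Of the other members, Bgn (r = 0.975, rank 57), Prelp (0.973, rank 72) and Dcn (0.962, rank 167) came nearest, and Podn (0.206) was furthest. The span of Srpx overlaps Rpgr.

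Most of the genes lie in groups of family members on their chromosomes. On chromosome 1, Prelp and Fmod are 120987 bases apart and Optc lies 2148 bases from Prelp. Within the span of this group lie 3 other rows with counts. On chromosome 10, Dcn and Lum are followed by Kera and Epyc within 217861 bases. On chromosome 13, Ecm2, Aspn, Omd and Ogn lie on the same strand within 125953 bases. Bgn and Podn have no family member in the table beside them.

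Values of neighbours were close in some places and far apart in others. Fmod (log2 fold change 6.54) and Prelp (1.22), neighbours only among family genes, differed widely, whereas Aspn (1.5, standard error 0.24) and Omd (1.76, 0.21) were nearer to each other. Optc, known from the eye, did not pass the filter on low counts and was at 0.336 ± 0.337 CPM in WT and 0.117 ± 0.116 in KO (SD, 6 hearts per genotype). Kera, the keratocan gene of the cornea, had 0 counts in all 12 libraries, which allows up to 3 counts in each. Epyc, known from cartilage, had 1 count in all WT libraries together and 17 in the KO libraries.

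**Figure D5:**
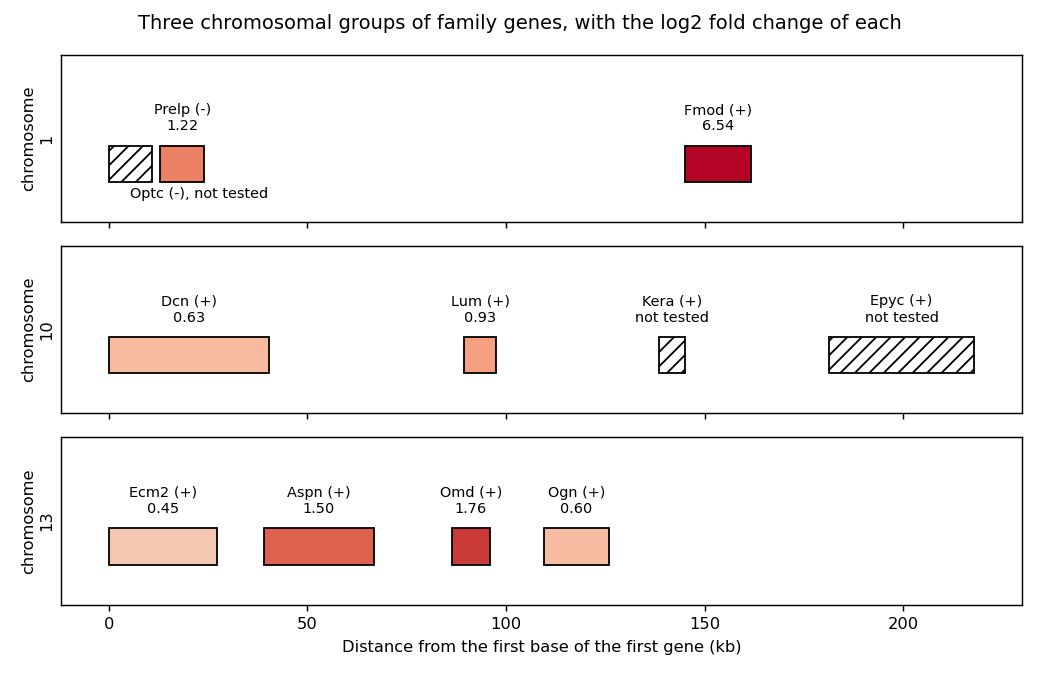
The 3 chromosomal groups of family genes drawn to scale (horizontal axis, distance in kb from the first base of the first gene), with strand and log2 fold change above or below each gene; darker red is a larger fold change (the colour scale ends at 2) and hatching marks genes that did not pass the filter on low counts. Among the family genes drawn, Fmod at 6.54 follows Prelp at 1.22, and on chromosome 13 the values are 0.45, 1.5, 1.76 and 0.60.

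Among 10 further genes of the family, a list that was also drawn up with earlier results of these data known, 5 passed the filter and 2 of them rose. Omd (osteomodulin, a class II protein of bone matrix) rose from 3.11 ± 0.795 to 10.5 ± 2.99 CPM (SD, 6 hearts per genotype); the fitted log2 value was 1.76 with a standard error of 0.21 (edgeR, adjusted p = 3.28e-06), with all KO hearts above all WT hearts. Ecm2 rose from 43.1 ± 3.98 to 59.0 ± 15.9 CPM, with a fitted log2 value of 0.45 and a standard error of 0.16 (edgeR, adjusted p = 0.0326). When 1 library was left out at a time, Ecm2 failed the threshold in 9 of 12 fits (all but those without KO replicates 3 and 6 and WT replicate 3). Both Omd and Ecm2 lie in the span of Cenpp. Chadl (whose span overlaps L3mbtl2), Nyx and Tsku, at 1.03 to 2.43 CPM in the group means, had log2 fold changes of -0.48, 0.24 and 0.24 (adjusted p = 0.111, 0.507 and 0.428). Without WT replicate 4, Chadl passed as lower (adjusted p = 0.0373). Chad and Podnl1, like Optc, Kera and Epyc, did not pass the filter. The median log2 fold change of the 5 tested genes was 0.24, against 0.00 over all tested rows, of which 25.6% were higher and 25.5% lower.

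The genes that act in building the sugar chains of these proteins, enzymes and a transporter, were next examined. Of 28 tested, 13 rose and 2 fell (median log2 fold change 0.27), beside 25.6% higher and 25.5% lower over all tested rows. The smallest p-values among the enzymes that rose were those of Chpf2 (whose span overlaps Smarcd3), Chst15 and Chpf, with log2 fold changes of 1.00, 0.85 and 0.53 (adjusted p = 1.4e-09, 2.02e-06 and 1.55e-05); Chpf and Chpf2 take part in chondroitin polymerization and Chst15 sulfates the chain. B3gat3, which adds the last sugar of the linker to the core protein, fell from 33.3 ± 1.95 to 25.7 ± 1.80 CPM (log2 fold change -0.37, adjusted p = 7.33e-05). Slc35b2, the transporter, also fell (log2 fold change -0.20, adjusted p = 0.0367), and with 1 library left out it failed the threshold in 7 of 12 fits.

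Of 24 genes listed as partners of these proteoglycans, mainly collagens, growth factors, receptors and complement C1q, 17 rose and 7 did not pass (median log2 fold change 0.74). Of all tested rows, 25.6% were higher and 25.5% lower. This list and those of the proteases and other proteoglycans were drawn up with earlier results known, so nothing is read from the counts. Tgfb2, a TGF-beta ligand, had a log2 fold change of 1.91 (adjusted p = 8e-08), and the receptors Tgfbr2 and Tgfbr1 had 0.47 (1.68e-07) and 0.89 (1.71e-07). Of 13 proteases and their enhancers known to act on these proteins or alongside them, 7 rose and 1 fell (median 0.77). Pcolce, an enhancer of procollagen processing, had a log2 fold change of 1.37 (adjusted p = 3.44e-07), Tll1 of 2.18 (1.27e-06) and Mmp14 of 0.96 (1.91e-06), while Mmp13, at 1.28 ± 0.537 CPM in WT and 0.306 ± 0.159 in KO, fell (log2 fold change -2.03, adjusted p = 0.000435). Of 19 other proteoglycans, 11 rose and 2 fell (median 0.48), with Gpc6 at 1.41 (adjusted p = 2.25e-07), Gpc4 at 0.63 (4.18e-06) and Sdc2 at 0.48 (2.68e-05) among the first and Gpc1 at -0.39 (9.41e-05) and Tgfbr3 at -0.17 (0.0489) the others. When 1 library was left out, Tgfbr3 failed the threshold in 9 of 12 fits.

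Markers of other cells that can hold these transcripts were read in the same fit. In a list of valve and tendon markers, Scx (whose span overlaps Bop1), Sox9 and Tnmd were the 3 genes tested and all rose (log2 fold changes 1.79, 0.94 and 5.38, adjusted p = 7.39e-08, 0.000202 and 0.00049). Tnmd was at 0.0757 ± 0.118 CPM in WT and 3.20 ± 2.52 in KO, and Col2a1, Acan and Hapln1 did not pass the filter. The summed level of this list was 7.07 to 10.2 CPM in WT and 17.8 to 33.9 in KO. Mural cell markers (3 of 8 higher, 2 lower), macrophage markers (2 of 9 higher, 2 lower) and endothelial markers (6 of 10 higher, 2 lower) had median log2 fold changes of 0.03, 0.13 and 0.26, beside 25.6% higher and 25.5% lower over all tested rows. Cardiomyocyte markers had a median of -0.30, with 5 of 9 lower, and atrial markers one of 1.34, with 4 of 5 higher and 1 lower, led in level by Nppa, which stressed ventricles are also known to express. Of the mesothelial list 1 gene (Wt1) was tested and not called. The part of these cell types in the levels of the 8 genes was not tested.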

How the data were processed

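Ventricular wall RNA of 12 mice was sequenced after poly-A selection. According to the study's methods and the submitters' processing notes, reads were mapped with HISAT2 2.0.5, and HTSeq counted them per gene. The authors deposited raw counts and FPKM values (scaled by gene length and library size) for each library. Their deposited group means of FPKM, scaled-count signal, log2 fold changes and p-values from DESeq were not used. Identifiers and gene coordinates are those of the C57BL/6NJ assembly, although the notes list mm10; promoters came from RefSeq on GRCm38.p6.

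The members and gene lists were chosen with earlier results of these data known. Counts were filtered with filterByExpr (17155 rows), TMM-normalized and tested with edgeR 4.0.16 in R 4.3.3 (robust quasi-likelihood, Benjamini-Hochberg over all rows tested, calls at an adjusted p of 0.05). Standard errors come from the fold change and F statistic. Medians of lists stand beside the median of all rows (0.00), with no set test. Genes were named by rule: all members, all further family genes, the 3 smallest p in each direction of the other lists, and the 5 rows most like Fmod; for the lists of other cell types only some are printed. Some genes stand in 2 lists. A further marker list is not reported here. The fit was tested on simulated data. No pair of replicates matched within sampling noise (lowest chi-square over its degrees of freedom, 7.41). Alternatives were other size factors, DESeq2 1.42.0, limma-voom 3.58.1, other filters, a replicate block and leaving out each library.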

Additional observations from a re-analysis of the deposited data

Results flagged for a closer look

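Of 174 groups of 6 hearts examined for a heart far from the other 5 (a gap to its nearest neighbour above Dixon's 95% limit for 6 values), 7 held one, where chance alone gives about 8.7. Among the 8 proteoglycans, WT replicate 6 had the highest share of Prelp in the summed FPKM, 4.05%, where the other 5 WT hearts had 3.28% to 3.57%. KO replicate 1 had the lowest share of Podn, 0.41%, where the other KO hearts had 0.631% to 0.733%. Of the further family genes, Omd was at 4.65 CPM in WT replicate 5 and at 2.50 to 3.23 CPM in the other WT hearts. Epyc was at 0.0423 CPM in WT replicate 1, a single count, and at 0 in the other WT hearts. Pdgfrb, a receptor of pericytes and fibroblasts, was at 119.7 CPM in KO replicate 3 and at 160.4 to 178.4 in the other KO hearts. The cardiomyocyte marker Tnni3 was at 3332 CPM in WT replicate 6 and at 3773 to 4019 in the other WT hearts. The targeted gene Sdhaf4 was at 2.73 CPM in KO replicate 1 and at 2.25 to 2.42 in the other KO hearts.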

How the results depend on the processing

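The log2 fold change of each of the 8 genes moved by less than the spread between hearts (SD of single hearts) under every alternative run. Leaving out 1 of 6 hearts can hardly move a group mean by that much, so nothing is read from this comparison. The ranges over the libraries left out were 6.36 to 6.96 for Fmod, 1.98 to 2.07 for Bgn, 1.37 to 1.63 for Aspn, 1.14 to 1.28 for Prelp, 0.81 to 1.05 for Lum, 0.58 to 0.67 for Dcn, 0.52 to 0.68 for Ogn and 0.04 to 0.16 for Podn. With raw counts, which carry no scaling by length, in place of FPKM, some shares of the pool moved. In WT and KO they became 13.2% and 26.6% for Bgn, 4.21% and 4.84% for Prelp, 7.97% and 5.88% for Ogn and 3.48% and 4.70% for Aspn, and 4.71% in WT for Lum. Against the summed CPM of the fibroblast markers in place of their mean log2 level, the difference was 0.38 for Dcn, 0.32 for Ogn, 1.78 for Bgn and 0.95 for Prelp; that of Podn, 0.04, became -0.16, and it was -0.01 without WT replicate 3. The same replicate numbers in both genotypes did not pair the hearts (correlations of the deviations from the group means -0.162 to 0.0243, 1 of the 6 numbers matching best with itself); a replicate block left 1 further family gene higher in place of 2, gave 4 macrophage markers higher in place of 2, and left 4123 rows higher and 4110 lower in place of 4391 and 4376. Counts of lower genes, all small, moved as follows. For the sugar chain genes it was 1 with no filter beyond 1 count and 1 to 3 over the libraries left out. For the proteases it was 0 with a minimum of 10 counts in every library of a group (Mmp13 was then not tested) and 1 to 2 over the libraries left out. For other proteoglycans it was 1 with DESeq2, with its size factors, with library size only and with limma-voom, and 1 to 2 over the libraries left out. For activated fibroblast markers it was 0 with no filter beyond 1 count and 0 to 1 over the libraries left out, and for macrophage markers 1 with library size only and 1 to 2. Further family genes called over the libraries left out were 1 to 2 higher and 0 to 1 lower. Of the correlations under the alternatives, 255 stayed on the same side of the threshold and 1 passed, that of Aspn with the activated markers in KO with library size only (adjusted p = 0.0444 over the 32 relations). Against the summed CPM of the activated markers, r in WT turned from 0.90 to -0.60 for Prelp and from 0.51 to -0.14 for Bgn, and without WT replicate 6 that of Aspn with the fibroblast markers in WT turned from 0.60 to -0.10. WT Fmod rests on 8 to 51 counts a library, so its fold change is less precise than that of the other members.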
